A study of Homo sapiens with 16 samples.

Results

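The proteins of the mitochondrial ribosome are named MRPS for the small subunit and MRPL for the large subunit, and every gene whose annotated symbol began with MRPL or MRPS followed by a number was taken. The rule found 75 of the 18132 genes that had a probe set of their own on the array. Of these, 74 encoded a ribosomal protein, 27 with an MRPS and 47 with an MRPL symbol. The remaining one was MRPL20-AS1, an antisense transcript, which is described apart at the end. MRPL23, MRPL53, MRPS24 and MRPS31P5 lay only on probe sets annotated to several genes and were not analysed here. Where a gene had several probe sets of its own, the one brightest on average was read.

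All RNA came from HEK293, a human embryonic kidney cell line, after 24 h of transfection with an expression plasmid for the mineralocorticoid receptor (MR), at 500 ng per well. Every group carried that plasmid, the controls included, so none of the values describes cells without added receptor. The 4 groups then differed in a treatment of 4 h. They were vehicle (given as none in the treatment label of these arrays; its composition is not given in the sources used here), 100 nM DOC, 10 nM PMA, and 100 nM DOC with 10 nM PMA. DOC is deoxycorticosterone, a steroid agonist of the receptor, and PMA is a phorbol ester, which acts on protein kinase C and through it switches on AP-1 transcription factors. Each group held 4 Affymetrix PrimeView arrays labelled as biological replicates of 1 cell line. The study asked how the receptor acts on AP-1 signalling.

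Mitochondria keep a small genome of their own, and their ribosomes translate only the few messages it encodes, which are core subunits of the respiratory chain and of ATP synthase. All proteins of this ribosome are encoded in the nucleus, made in the cytosol and imported, whereas its RNAs come from mitochondrial DNA. Some members descend from proteins of the bacterial ribosome, and others were added in the course of mitochondrial evolution. In structures of the mammalian mitochondrial ribosome, MRPS30 and MRPS18A sit in the large subunit in spite of their names.

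The stretch before the start of a gene is shown for a selection of members. They are MRPS33, MRPS26 and MRPL40, which fell, MRPS11 (whose window overlaps that of another member), and MRPS30 (which had the largest rise). Each is the 250 bases that end just before the gene's start, written 5′ to 3′ on the gene's own strand, from RefSeq on GRCh38.p14. Capitals mark a match, on either strand, to one of the motifs searched: NRF1, ETS (CCGGAAG), SP1 (GGGCGG), YY1, AP-1 (TGANTCA), CRE (TGACGTCA), the palindromic steroid response element and the TATA box (TATAAA).
MRPS33, chr7:141014953-141015202, minus strand: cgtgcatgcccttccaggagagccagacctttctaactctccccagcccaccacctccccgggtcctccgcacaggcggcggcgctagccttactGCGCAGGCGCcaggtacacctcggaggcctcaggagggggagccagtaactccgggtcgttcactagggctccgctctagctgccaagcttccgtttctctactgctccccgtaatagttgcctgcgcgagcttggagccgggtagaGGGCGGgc
MRPS26, chr20:3045802-3046051, plus strand: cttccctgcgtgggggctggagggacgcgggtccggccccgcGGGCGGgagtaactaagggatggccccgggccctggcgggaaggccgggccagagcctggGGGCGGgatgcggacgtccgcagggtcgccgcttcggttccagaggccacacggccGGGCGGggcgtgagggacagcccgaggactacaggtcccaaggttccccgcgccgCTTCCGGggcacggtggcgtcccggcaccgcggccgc
MRPL40, chr22:19432295-19432544, plus strand: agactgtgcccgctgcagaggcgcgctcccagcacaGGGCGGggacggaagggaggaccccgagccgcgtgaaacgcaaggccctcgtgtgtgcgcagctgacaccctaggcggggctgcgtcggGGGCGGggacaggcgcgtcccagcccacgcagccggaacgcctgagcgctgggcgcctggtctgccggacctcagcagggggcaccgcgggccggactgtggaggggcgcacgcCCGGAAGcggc
MRPS11, chr15:88467458-88467707, plus strand: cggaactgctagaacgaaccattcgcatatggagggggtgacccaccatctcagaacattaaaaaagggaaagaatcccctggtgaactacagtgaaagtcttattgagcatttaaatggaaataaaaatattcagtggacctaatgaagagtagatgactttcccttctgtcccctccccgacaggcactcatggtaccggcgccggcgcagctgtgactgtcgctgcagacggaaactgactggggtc
MRPS30, chr5:44808697-44808946, plus strand: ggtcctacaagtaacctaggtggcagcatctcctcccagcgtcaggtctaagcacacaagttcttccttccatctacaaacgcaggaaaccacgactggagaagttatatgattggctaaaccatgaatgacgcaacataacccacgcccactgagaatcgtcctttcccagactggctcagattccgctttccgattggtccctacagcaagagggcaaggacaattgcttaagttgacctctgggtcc
The MRPS33 window held 1 NRF1 and 1 SP1 match, the MRPS26 window 1 ETS and 3 SP1 matches, and the MRPL40 window 1 ETS and 2 SP1 matches. The MRPS11 and MRPS30 windows held none of the searched letters. Not shown is the window of MRPL34, the member with the largest fall, which held 3 SP1 matches. MRPS34 and MRPL12, not shown either, also fell more than MRPL40. The MRPS34 window held 3 ETS and 2 SP1 matches, and the MRPL12 window none of the searched letters.

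Values are log2 RMA signals, in which 1 unit is a doubling. RMA brings the arrays to one shared distribution, which hides any change common to the whole transcriptome. In such bulk RNA, fewer cells with a transcript and less of it per cell cannot be told apart. Array medians lay between 4.91 and 4.96, and arrays of a group correlated with each other at 0.991 to 0.997 over all tested genes. The treatments left their known marks: FOS and EGR1, immediate early genes of the phorbol ester response, were higher with PMA by 5.73 ± 0.08 and 5.67 ± 0.09 (log2 ± SE), and the steroid targets PDK4 and SGK1 stood at 6.92 and 7.44 with DOC against 5.00 and 6.51 with vehicle. Of the 8 markers chosen for the kidney line, 7 passed the filter on dim probe sets. LHX1, KRT8, KRT18, VIM, NEFL and NEFM lay well above the array median, but PAX2, at 4.81, lay just below it. With PMA, 5 of these 7 rose and 2 fell. Of 5 measured leukocyte markers 2 passed. They were LCP1 at a mean signal of 9.09 and CORO1A at 4.61, and CORO1A rose by 0.47 ± 0.08 with PMA. The summed linear signal of the 5 leukocyte markers was 544 to 628 in the vehicle and 623 to 706 in the PMA arrays. That of the 5 endothelial markers was 74.7 to 84.5 and 87.5 to 97.1, and that of the 5 fibroblast markers 54.3 to 62.0 and 53.4 to 64.3. In the DOC arrays the sums were 574 to 673 (leukocyte), 87.0 to 90.9 (endothelial) and 47.9 to 58.1 (fibroblast). In the DOC plus PMA arrays they were 633 to 697, 86.9 to 93.3 and 52.0 to 59.1. The endothelial sum was thus above the vehicle range with DOC alone too. The part of these markers in the results was not tested.

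PMA lowered the message of many mitochondrial ribosomal proteins and raised that of a few, and no change reached 2-fold. The PMA effect is the mean of the difference between PMA and vehicle and the difference between DOC plus PMA and DOC. A gene was called at an adjusted p under 0.05 in limma's moderated test over 12495 genes (two-sided, Benjamini-Hochberg). Of the 74 members, 37 fell (50.0%), 6 rose (8.1%) and 31 did not pass. In all genes tested, 35.5% fell and 21.7% rose. With every array shifted to a common median of the tested genes, the counts were 23 falls and 11 rises (31.1% and 14.9%), where 27.3% of all genes fell and 33.0% rose. The median effect over the members was -0.14, with quartiles at -0.30 and -0.03 and a range from -0.68 to 0.47, and 59 of 74 values lay below 0. The median over all genes was -0.04. All 74 passed the filter on dim probe sets, with mean signals from 6.18 (MRPL2) to 12 (MRPL36), each above the highest array median. Levels of different probe sets are not comparable, so this gives no order of abundance. Among the brightest probe sets, MRPL51 (mean 11.67) fell by 0.14, while MRPL36 and MRPS21 (mean 10.81) were at -0.05 and 0.02, not called. Among the dimmest, MRPL2 fell by 0.29 and MRPL38 (mean 7.23) was at -0.15, not called. The median SD within groups was 0.1, so that the SE of the PMA effect had a median of 0.06. Of the 37 that fell, 19 did so by more than 0.3.

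**Figure D1:**
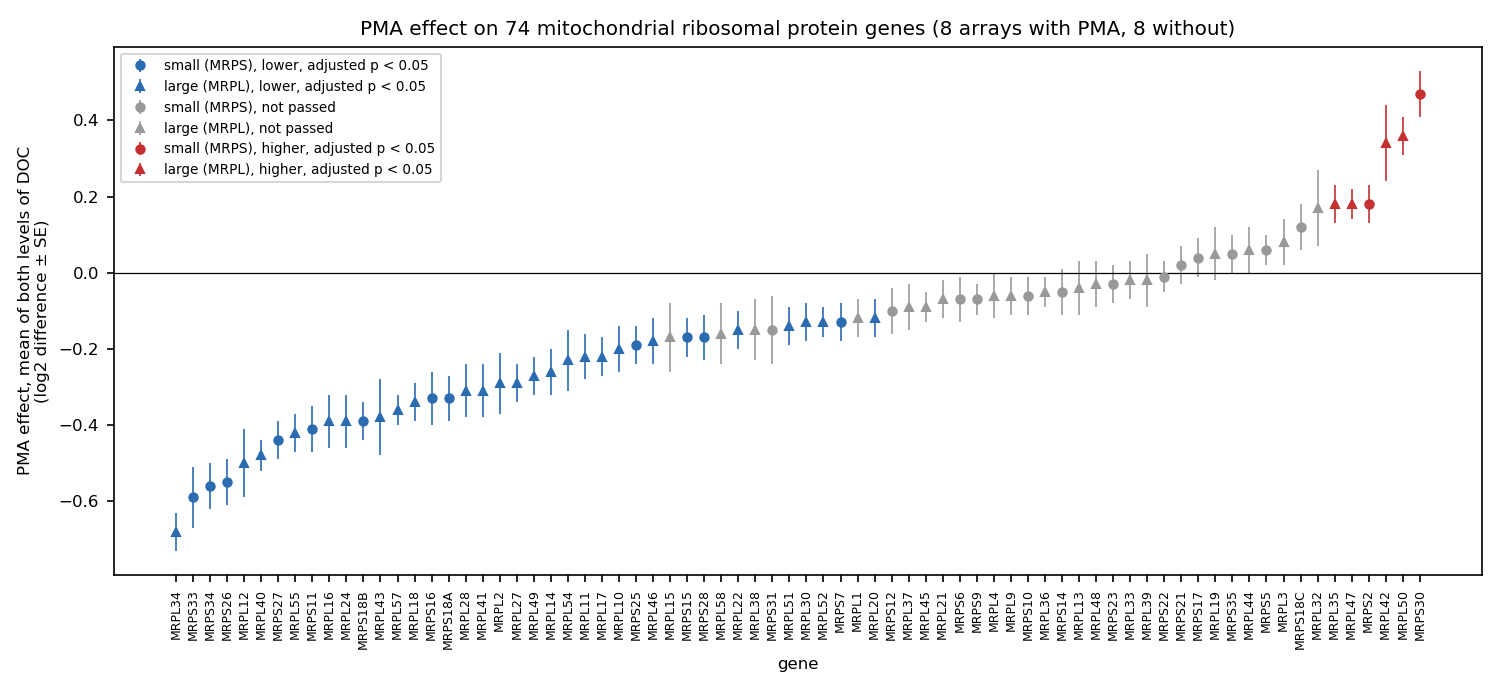
PMA effect on each of the 74 mitochondrial ribosomal protein genes (log2 difference, mean of the effect with and without DOC, bars ± SE), ordered by size and coloured by the call at adjusted p under 0.05. Values run from -0.68 (MRPL34) to 0.47 (MRPS30), with 37 called lower and 6 called higher.

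MRPL34, the counterpart of a small protein of the bacterial large subunit, had the largest fall. Its 4 vehicle arrays read 9.94, 9.99, 10.02 and 10.10 and its DOC arrays 10.03, 9.93, 10.01 and 9.98. The PMA arrays read 9.15, 9.16, 9.34 and 9.39 and the DOC plus PMA arrays 9.43, 9.31, 9.28 and 9.47. All 8 arrays with PMA lay below all 8 without it. The PMA effect was -0.68 ± 0.05 (SE), so that the linear signal fell by 37.7% (limma, adjusted p = 1.46e-09).

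MRPS33, a small subunit protein without a bacterial counterpart, read 9.44, 9.67, 9.62 and 9.52 with vehicle and 9.25, 9.56, 9.70 and 9.56 with DOC. With PMA it read 8.82, 8.61, 9.03 and 9.11, and with both agents 8.99, 8.81, 9.10 and 9.13. The groups with and without PMA did not overlap, although DOC replicate 1 came close. The effect was -0.59 ± 0.08, so that the linear signal fell by 33.6% (limma, adjusted p = 3.79e-06).

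MRPS34, which is needed for a stable small subunit, read 10.44, 10.57, 10.53 and 10.44 with vehicle and 10.25, 10.47, 10.63 and 10.47 with DOC. It read 9.77, 9.80, 9.90 and 10.10 with PMA and 9.94, 9.80, 10.05 and 9.96 with both. Again the arrays with and without PMA were apart. The effect was -0.56 ± 0.06, so that the linear signal fell by 32.3% (limma, adjusted p = 3.21e-07).

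MRPS26, another small subunit protein particular to mitochondria, read 9.40, 9.41, 9.43 and 9.40 with vehicle and 9.21, 9.39, 9.46 and 9.38 with DOC. It read 8.78, 8.56, 8.90 and 8.94 with PMA and 8.92, 8.72, 8.91 and 8.94 with both. Replicate 2 was the lowest array of each PMA-treated group, and no array with PMA reached one without. The effect was -0.55 ± 0.06, so that the linear signal fell by 31.7% (limma, adjusted p = 1.97e-07).

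MRPL40, whose gene lies in the chromosomal region deleted in DiGeorge syndrome, read 10.23, 10.28, 10.30 and 10.26 with vehicle and 10.21, 10.31, 10.33 and 10.25 with DOC. The readings were 9.65, 9.69, 9.80 and 9.83 with PMA and 9.84, 9.75, 9.86 and 9.91 with both. The spread within each group was small and the groups stayed apart. The effect was -0.48 ± 0.04, so that the linear signal fell by 28.3% (limma, adjusted p = 2.33e-08).

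MRPL12, the counterpart of the bacterial stalk protein that recruits translation factors, read 9.48, 9.43, 9.51 and 9.38 with vehicle and 8.98, 9.46, 9.49 and 9.48 with DOC. It read 8.87, 8.50, 8.95 and 9.06 with PMA and 8.86, 8.81, 9.08 and 9.09 with both. Here the groups overlapped: DOC replicate 1 lay among the arrays with PMA, so that only 5 of the 8 arrays with PMA were below all others. The effect was -0.50 ± 0.09, so that the linear signal fell by 29.3% (limma, adjusted p = 6.57e-05).

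MRPS27, a pentatricopeptide repeat protein of the small subunit, was measured by 4 probe sets that all fell, by 0.42 to 0.54. The probe set used read 8.10, 8.13, 8.09 and 8.15 with vehicle and 7.98, 8.19, 8.20 and 8.14 with DOC. It read 7.65, 7.52, 7.75 and 7.75 with PMA and 7.69, 7.61, 7.73 and 7.78 with both. The 8 arrays with PMA lay below the others, and the effect was -0.44 ± 0.05 (limma, adjusted p = 3.81e-07).

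MRPL55, a large subunit protein, read 9.04 to 9.13 with vehicle and 9.08 to 9.26 with DOC, against 8.54 to 8.80 with PMA and 8.60 to 8.84 with both. Its effect was -0.42 ± 0.05 (limma, adjusted p = 1.01e-06). MRPL16, the counterpart of a bacterial protein near the tRNA sites of the large subunit, fell by 0.39 (SE 0.07, limma, adjusted p = 7.36e-05), with 6 of 8 arrays below all those without PMA. In all, 10 members had every array with PMA below every array without it: MRPL34, MRPL40, MRPL55, MRPL57, MRPS11, MRPS18B, MRPS26, MRPS27, MRPS33 and MRPS34. That is 10 of 74, where 17.0% of all genes tested were separated in this way. Such separation was no more frequent among the members than among all genes.

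Among the 6 that rose, MRPS30 changed most. This protein of the large subunit read 9.07, 9.0, 9.12 and 9.15 with vehicle and 8.79, 9.06, 9.15 and 9.11 with DOC. It read 9.60, 9.27, 9.60 and 9.61 with PMA and 9.53, 9.40, 9.58 and 9.57 with both. The lowest array with PMA, replicate 2, was above the highest without it. The effect was 0.47 ± 0.06, a rise of 38.0% (limma, adjusted p = 4.57e-06).

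MRPL50 read 8.33, 8.34, 8.31 and 8.51 with vehicle, 8.20, 8.48, 8.28 and 8.42 with DOC, 8.63, 8.73, 8.69 and 8.65 with PMA and 8.85, 8.68, 8.63 and 8.89 with both. The groups with and without PMA did not overlap, and the effect was 0.36 ± 0.05 (limma, adjusted p = 1.75e-05). MRPL50 and MRPS30 were the only members of the 74 with every array with PMA above every other, against 10.1% of all genes. MRPL50 had a further, dimmer probe set, which moved the other way (-0.24, adjusted p = 0.0474 in limma's fit over all probe sets). With both averaged the effect was 0.06 (adjusted p = 0.444).

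MRPL42 read 8.38, 8.47, 8.44 and 8.63 with vehicle and 7.95, 8.36, 8.49 and 8.62 with DOC. It read 8.89, 8.31, 8.86 and 8.88 with PMA and 8.85, 8.60, 8.80 and 8.89 with both. Replicate 2 of both groups with PMA lay among the arrays without PMA, and DOC replicate 1 below all. The effect was 0.34 ± 0.10 (limma, adjusted p = 0.00573), and all 3 of its probe sets rose, by 0.25, 0.34 and 0.34. The other members that rose were MRPS2 (0.18 ± 0.05), MRPL47 (0.18 ± 0.04) and MRPL35 (0.18 ± 0.05), all counterparts of bacterial proteins. MRPL35 rose by its brightest probe set alone: the other 3 fell, by 0.20, 0.29 and 0.32, and their average with it was -0.16 (limma, adjusted p = 0.00313).

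**Figure D2:**
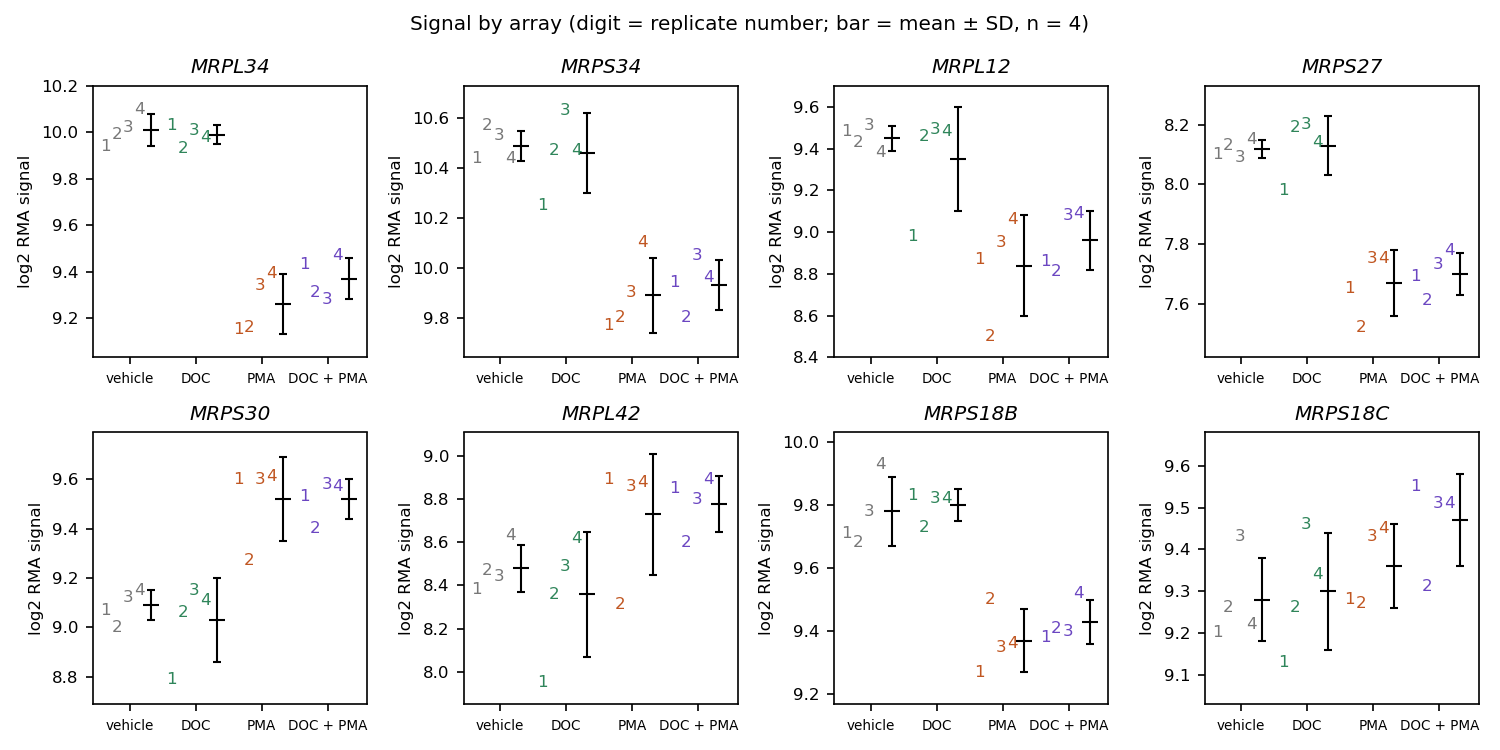
Signal of 8 members on each of the 16 arrays (log2 RMA; the digit is the replicate number, bars are the group mean ± SD, n = 4). MRPL34, MRPS34, MRPS27 and MRPS18B were lower and MRPS30 was higher on all arrays with PMA, while MRPL12 overlapped through DOC replicate 1 and MRPL42 through replicate 2 of both groups with PMA, and MRPS18C did not pass the test.

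For 41 of the 74 members there was more than one probe set, and these did not always agree. The sign of the PMA effect differed between probe sets in 19 of the 41. In 4 of them (MRPL17, MRPL35, MRPL50 and MRPS11) probe sets were called in opposite directions. MRPS11, a counterpart of a protein in the platform of the bacterial small subunit, had 4 probe sets that fell by 0.33 to 0.41 and a dimmer one that rose by 0.31. The probe set used for it read 9.94 to 10.14 with vehicle, 9.92 to 10.23 with DOC, 9.59 to 9.75 with PMA and 9.45 to 9.89 with both. MRPL17 had one probe set at -0.22 and a dim one at 0.22. Of the 37 members that fell, 19 had several probe sets, of which 12 had negative values in all of them and 9 were called lower in all. With the probe sets of a gene averaged, 32 of the 37 falls and 4 of the 6 rises were still called. All probe sets moved together for MRPS27 and MRPL42.

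The falls were spread over MRPS and MRPL genes. This split is by symbol: MRPS18A, which fell, and MRPS30, which rose, count as MRPS here but sit in the large subunit. Of the 27 MRPS genes 12 fell and 2 rose (median -0.10), and of the 47 MRPL genes 25 fell and 4 rose (median -0.15). The falls make up 44.4% and 53.2%, where 35.5% of all genes tested fell. Split by number, 43 members carry the numbers of the bacterial ribosomal proteins, and 21 of them fell (median -0.12). The 31 with higher numbers, largely proteins added in mitochondria, had 16 falls (median -0.15). This split is approximate, since MRPL47 and MRPL55 have bacterial counterparts too. The differences between these shares were not tested.

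The MRPS18 family holds 3 paralogs that descend from one bacterial protein and occupy different places in the ribosome. MRPS18B, in the small subunit, read 9.71, 9.68, 9.78 and 9.93 with vehicle and 9.83, 9.73, 9.82 and 9.82 with DOC, against 9.27, 9.50, 9.35 and 9.36 with PMA and 9.38, 9.41, 9.40 and 9.52 with both. It fell by 0.39 (SE 0.05, limma, adjusted p = 1.77e-06), without overlap. MRPS18A, in the large subunit, read 8.49 to 8.74 with vehicle, 8.35 to 8.78 with DOC, 8.20 to 8.32 with PMA and 8.16 to 8.41 with both. It fell by 0.33 (SE 0.06, limma, adjusted p = 1.66e-04), but its other, dimmer probe set was at 0.02. MRPS18C, also in the small subunit, read 9.20, 9.26, 9.43 and 9.22 with vehicle, 9.13, 9.26, 9.46 and 9.34 with DOC, 9.28, 9.27, 9.43 and 9.45 with PMA and 9.55, 9.31, 9.51 and 9.51 with both. Its value was 0.12 ± 0.06 (limma, adjusted p = 0.0711), which did not pass the test as fitted and was above 0 in every alternative. It passed with the replicate block (0.12, limma, adjusted p = 0.0375), array weights (0.0455), cyclic loess (0.0248), the common median (0.21, adjusted p = 0.00981) and without the 3 deviating arrays (0.0334), and also without vehicle replicate 3, DOC replicate 3 or DOC plus PMA replicate 2. Over the alternatives the adjusted p ranged from 0.00981 to 0.375, the latter with its probe sets averaged (0.06). The other, dimmer probe set of MRPS18C was at -0.0 (adjusted p = 0.99 in limma's fit over all probe sets). So by the probe sets used 2 of the 3 paralogs fell, and the third had a value above 0 that its other probe set did not show. A test of the difference between the paralogs was not made.

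The PMA effect can be read without DOC and with it, in comparisons that share no array. Same-numbered arrays of PMA and of DOC plus PMA were taken as paired, however, so the comparisons are not independent of each other. The fit of both comparisons, and of the PMA effect over both, left this pairing out. Against vehicle, PMA lowered 35 members and raised 3 (median -0.19), where 29.3% of all genes fell and 17.7% rose. In the presence of DOC, PMA lowered 18 and raised 5 (median -0.09), where 26.9% fell and 15.7% rose. The 18 were all among the 35, so they make up 51.4% of the 35 and 100% of the 18. For all genes tested, the shared falls were 81.0% of those without DOC and 88.1% of those with it. All 35 had the same sign with DOC. Of the rises, 2 were shared, of 3 without DOC and 5 with it. For all genes the shared rises were 76.2% and 85.8%. Across the 74 members the effects without and with DOC had a correlation of 0.92, and across all genes 0.96. These are correlations over genes measured on the same arrays and are given as a description.

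**Figure D3:**
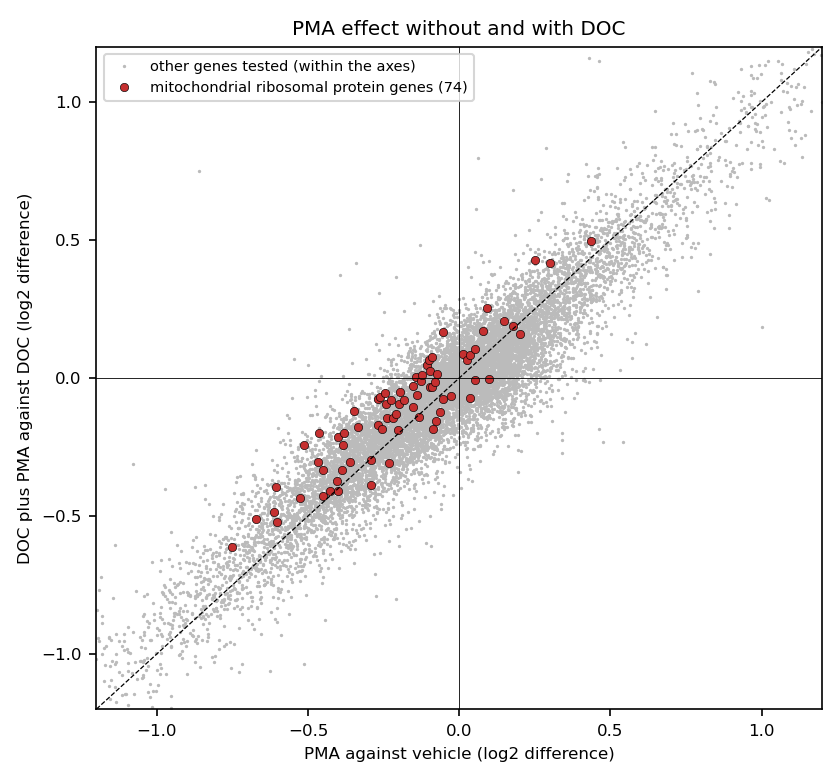
PMA effect on each member without DOC (horizontal axis) and with DOC (vertical axis), log2 differences from limma. Red points are the 74 members, grey points the other genes tested within the axes, and the dashed line marks equal effects; 60 of the 74 members lie above it, and the correlation over them was 0.92.

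The smaller number of falls with DOC was not matched by a difference that passed a test. The difference between the 2 PMA effects, that is the interaction of DOC and PMA, was above 0 in 60 of 74 members (6181 of 12495 over all genes), with a median of 0.09 and a range from -0.11 to 0.27. In no member was it called (0 of 74, where 0.088% of all genes were), nor did any member have an unadjusted p under 0.05 in limma's fit (2.96% of all genes did). The interaction shares its arrays with both PMA effects, and the members are not independent of each other.

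How far single arrays carried these counts can be seen from the members' median deviation from their means. It was 0.041, 0.09, 0.097 and 0.118 on the vehicle arrays and -0.064, 0.055, 0.125 and 0.116 on the DOC arrays. On the PMA arrays it was -0.165, -0.22, -0.03 and -0.013, and on the DOC plus PMA arrays -0.046, -0.148, 0.003 and 0.039. PMA replicates 1 and 2 were the lowest of all, replicate 2 was the lowest of its group with DOC plus PMA, and DOC replicate 1 was the only array without PMA below 0. Without PMA replicate 1, PMA lowered 23 members against vehicle in place of 35, where 25.5% of all genes fell. Without PMA replicate 2, it lowered 27 and raised 6, where 30.7% of all genes fell and 15.9% rose. Without DOC replicate 1, PMA raised 3 members in the presence of DOC in place of 5, where 16% of all genes rose. An earlier analysis of these data had found 3 arrays to deviate together, replicate 2 of both groups with PMA and replicate 1 of DOC. Without them, PMA lowered 33 members without DOC (33.0% of all genes) and 25 with DOC (27.2% of all genes). The PMA effect over both was then called lower in 39 and higher in 7, where 37.3% of all genes fell and 21.7% rose.

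**Figure D4:**
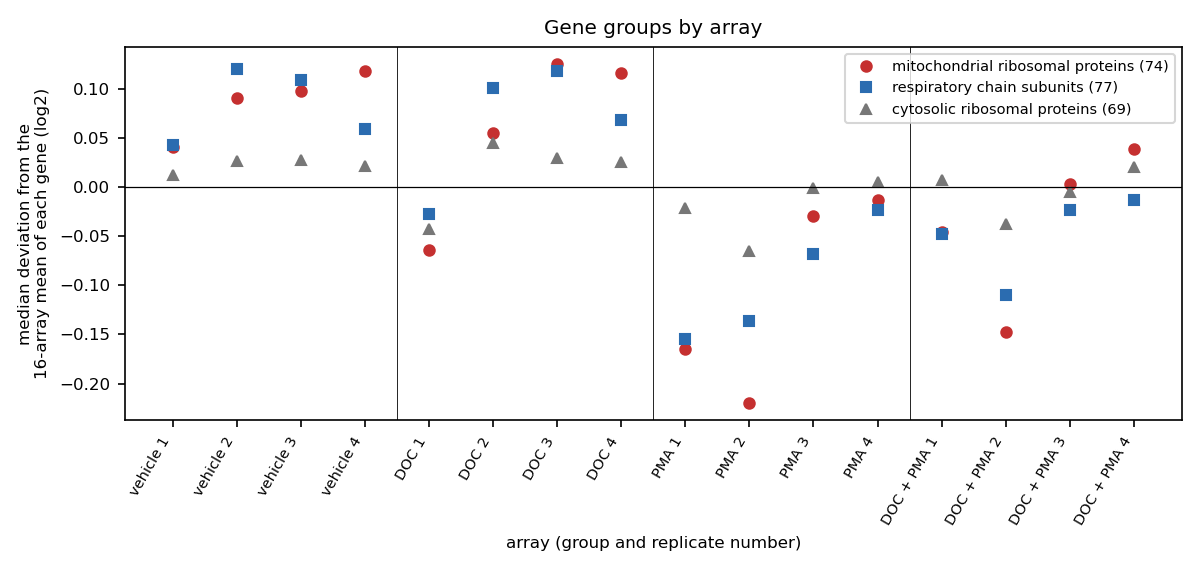
Median deviation from the gene's mean over 16 arrays (log2), by array, for the mitochondrial ribosomal proteins. Beside them are the respiratory chain subunits (ATP synthase included) and the cytosolic ribosomal proteins. PMA replicates 1 and 2 lie lowest for the mitochondrial ribosomal proteins, at -0.165 and -0.22, and the cytosolic ribosomal proteins spread less.

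No member passed the test for an effect of DOC, alone or beside PMA, with 4 arrays a group. Against vehicle, 0 of 74 were called (0.12% of all genes) and 0 of 74 had an unadjusted p under 0.05 in limma's fit (3.09% of all genes). The differences ranged from -0.14 to 0.13, with a median of -0.03 and a median SE of 0.08. With DOC plus PMA against PMA, 0 of 74 were called (0.384% of all genes). In the same fit 0 had an unadjusted p under 0.05 (4.35% of all genes). These differences ranged from -0.06 to 0.14 with a median of 0.06. Of the 74, 61 lay above 0 and 13 below (7252 of 12495 above 0 over all genes). Same-numbered arrays of these groups were taken as paired, but this fit left the pairing out. Its unadjusted p values are thus those of a fit without pairs. With a block for the number, 0 of 74 were called too. Differences of the size of the falls with PMA in MRPL34 or MRPS33 were thus not seen with DOC in any member. A p that missed the threshold does not show that the levels were equal.

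The share of falls depended on how the arrays were scaled. After cyclic loess, 33 members fell and 8 rose (44.6% and 10.8%), where 31.2% of all genes fell and 26.2% rose. With each array shifted so that the median of the tested genes was common to all, 23 fell and 11 rose (31.1% and 14.9%), where 27.3% of all genes fell and 33.0% rose. The median over the members went from -0.14 to -0.11 and -0.05, and that over all genes from -0.04 to -0.01 and 0.04. Of the 37 falls, 33 were still called lower after cyclic loess and 23 with the common median. With the common median the members' share of falls lay close to that of all genes.

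**Figure D5:**
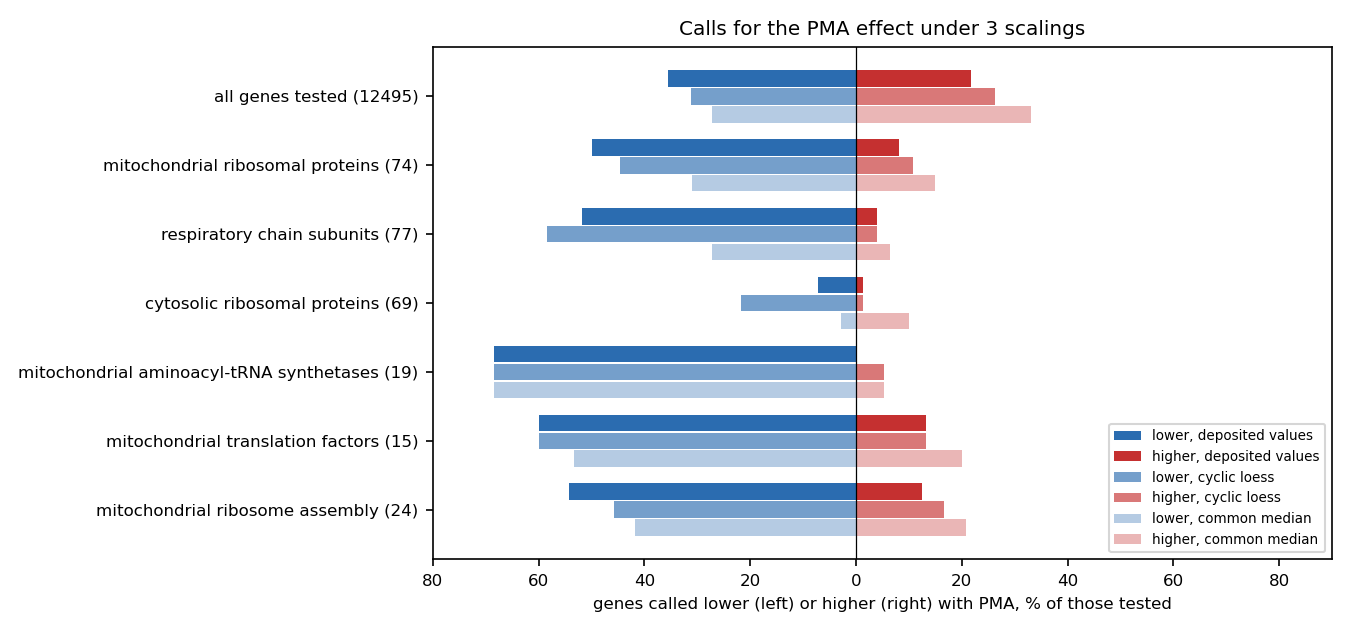
Share of genes called lower (left) or higher (right) with PMA in each list, in percent of those tested, for the deposited values and under 2 other scalings. Mitochondrial ribosomal proteins fell in 50.0%, 44.6% and 31.1%, and all genes in 35.5%, 31.2% and 27.3%.

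Members that fell had a shorter median gene length than the others. The median gene length was 5.38 kb for the 37 that fell, 15.1 kb for the 31 that did not pass, 12.7 kb for the 6 that rose and 29.2 kb for all genes tested. Over the 74 members, the PMA effect had a Spearman correlation of 0.36 with gene length, -0.04 with signal and, over the 67 with a listed promoter, -0.29 with the GC content of the promoter. The same values over all genes were 0.00, 0.02 and 0.03. They are descriptions over genes read on the same arrays.

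A listed promoter was found for 67 of the 74 members, and the letters shown in capitals above were counted in the 250 bases before the start. The ETS letters CCGGAAG, recognised by GABP among others, occurred in 22 of 67 members (32.8%), in 15.3% of the genes tested and in 8.82% of all promoters in the table. They were found in 29.4% of the members that fell, 39.3% of those that did not pass and in 1 of the 5 that rose. The YY1 letters occurred in 4.48% of members and 0.585% of genes tested, the NRF1 letters in 11.9% and 10.3%, and the SP1 letters in 55.2% and 67.3%. The AP-1 letters TGANTCA, the site of the factors PMA activates, occurred in 1.49% of members, 3.85% of genes tested and 6.6% of all promoters. No member held the CRE or steroid response letters in this window, and the CRE letters were in 2.96% of genes tested. A match is no proof of a site, and a window of 250 bases leaves out distant elements.

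Several members share their start region with a gene on the opposite strand. Such a neighbour with a start within 1000 bases was found for 21 of 67 members (31.3%) and for 23.2% of genes tested. MRPS11 and MRPL46 form such a pair of members, with starts 320 bases apart and 181 bases common to their windows, and both fell, by 0.41 and 0.18. MRPS27, which fell by 0.44, starts 133 bases from PTCD2, a mitochondrial RNA-binding protein gene that fell by 1.14 (SE 0.09, limma, adjusted p = 2.57e-09). MRPL27 and EME1, a DNA repair nuclease gene, fell by 0.29 and 0.78. MRPS2, which rose by 0.18, starts 813 bases from PIERCE1, which fell by 0.61 (SE 0.07). MRPL18 fell by 0.34, whereas TCP1, a subunit gene of the cytosolic chaperonin, was at 0.08 (limma, adjusted p = 0.0559). Neighbours thus moved in the same direction in some pairs and not in others.

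Subunits of the ribosome with other names were read beside the members. CHCHD1 fell by 0.42 (SE 0.07). DAP3, the GTP-binding protein of the small subunit, was at 0.04 and PTCD3 at 0.05, neither called. With probe sets averaged, DAP3 was at -0.03 and PTCD3 at -0.19 (limma, adjusted p = 0.000568). GADD45GIP1 was at -0.21 ± 0.10 (limma, adjusted p = 0.0966).

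The lists of the rest of the mitochondrial translation pathway are to be read against 35.5% of falls and 21.7% of rises over all genes tested. The aminoacyl-tRNA synthetases, which charge the tRNAs, had 13 falls (68.4%) and 0 rises in 19, with a median of -0.28. HARS2, the histidyl-tRNA synthetase, fell by 1.04 (SE 0.07), PARS2 by 0.65 (SE 0.09) and TARS2 by 0.57 (SE 0.08). Of 15 translation factors 9 fell (60%) and 2 rose, with a median of -0.21. The initiation factors MTIF2 and MTIF3 fell by 0.61 (SE 0.04) and 0.57 (SE 0.04), while the release factor MTRF1L rose by 0.70 (SE 0.06) and LRPPRC, which stabilises mitochondrial messages, by 0.19 (SE 0.05). Of 24 assembly factors 13 fell (54.2%) and 3 rose, with a median of -0.16. The falls included MALSU1, which holds the subunits apart during assembly (by 0.57, SE 0.04), and TFB1M, the methyltransferase of the small ribosomal RNA (by 0.56, SE 0.07), as well as MPV17L2 (by 0.55, SE 0.09). The rises were RPUSD4, a pseudouridine synthase (0.29), DDX28, an RNA helicase (0.19), and FASTKD2 (0.17).

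Genes that transcribe mitochondrial DNA and process its RNA had 8 rises and 6 falls among the 16 tested, with a median of 0.12. The falls make up 37.5% and the rises 50.0%, where 35.5% of all genes fell and 21.7% rose. With probe sets averaged, 5 fell and 6 rose and the median was 0.02. TFB2M, a transcription initiation factor, rose by 0.91 (SE 0.05), and TRMT10C, a subunit of the mitochondrial RNase P, by 0.89 (SE 0.05). The list also held TWNK, the helicase of mitochondrial DNA replication, which rose by 0.62 (SE 0.05). The falls included POLRMT, the RNA polymerase itself, by 0.46 (SE 0.06), and PRORP, the catalytic subunit of the mitochondrial RNase P, by 0.44 (SE 0.05). Of 8 regulators of mitochondrial biogenesis, 2 fell and 5 rose. MYC rose by 1.42 (SE 0.11), the coactivator PPRC1 by 0.84 (SE 0.04), NRF1 by 0.41 (SE 0.05), GABPA, the DNA-binding subunit of GABP, by 0.33 (SE 0.06), and YY1 by 0.24 (SE 0.06). The dim PPARGC1A, a coactivator of the same family as PPRC1, fell by 0.68 (SE 0.09), and the nuclear receptor ESRRA by 0.17 (SE 0.06). These are transcript levels after 4 h and say nothing of protein.

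Lists outside the pathway served for comparison, and differences between lists were not tested. The respiratory chain list held nuclear-encoded subunits and included those of ATP synthase. Of its 77 genes 40 fell and 3 rose (51.9% and 3.9%), with a median of -0.13, close to the median of the members. Over all genes tested 35.5% fell and 21.7% rose. After cyclic loess the counts were 45 and 3, where 31.2% of all genes fell and 26.2% rose. With the common median they were 21 and 5, where 27.3% of all genes fell and 33.0% rose. The largest falls were those of the complex I subunits NDUFV2 (by 0.47, SE 0.07), NDUFB10 (by 0.34, SE 0.06) and NDUFV3 (by 0.34, SE 0.05). The 3 rises were COX6A2 (0.13), COX6B2 (0.26) and COX8C (0.27), isoforms of cytochrome c oxidase subunits known from muscle or testis. Their probe sets were dim (means of 4.37, 4.5 and 3.86, below the array medians). With the filter at the 60th percentile 0 of 74 subunits rose, and without a filter 1 of 77 did. A single rise was also left on leaving out vehicle replicate 2, DOC replicate 3 or 4, PMA replicate 3 or DOC plus PMA replicate 1 or 3. Of 69 cytosolic ribosomal proteins 5 fell and 1 rose, with a median of -0.03, after cyclic loess 15 and 1, and with the common median 2 and 7, when their median was 0.06. With the probe sets of a gene averaged, 7 fell and 11 rose (median -0.01). Leaving out 1 array at a time gave 2 to 7 falls, with 2 without vehicle replicate 3 or without DOC replicate 2, and 1 to 3 rises, with 3 without PMA replicate 2. Neither direction held under every setting for this list. RPL39L fell by 0.44 (SE 0.05), RPL13 by 0.33 (SE 0.04), RPL26L1 by 0.16, RPL3 by 0.13 and RPS27L by 0.12, and RPL27A rose by 0.59 (SE 0.09). All these lists were read from the same arrays.

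MRPL20-AS1, the antisense transcript at the MRPL20 gene, is no ribosomal protein and had its own probe set. Its group means were 8.1 ± 0.07 with vehicle, 8.06 ± 0.04 with DOC, 7.19 ± 0.21 with PMA and 7.24 ± 0.12 with both (SD, n = 4). It fell by 0.87 (SE 0.06, limma, adjusted p = 1.33e-09), more than any of the 74 protein genes. MRPL20 itself fell by 0.12 (SE 0.05, limma, adjusted p = 0.0352).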

How the data were processed

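Total RNA of 16 cultures (4 groups of 4) was amplified and biotin-labelled by a 3′ in vitro transcription kit, then hybridised to Affymetrix PrimeView arrays, per the labels' protocols. The values the authors deposited are log2 signals. The submitters' processing notes name RMA and Affymetrix Expression Console, with no versions. The table held 49293 probe sets, of which 44988 were annotated to 1 gene, 1832 to several and 2473 to none, with values from 1.21 to 13.8. It held 0 columns of other samples.

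Dim probe sets were left out: one had to lie at or above the 40th percentile on 4 or more of the 16 arrays. Each gene was read from its kept single-gene probe set with the highest mean, which left 12495 genes. Group means were fitted on all 16 arrays with limma 3.58.1 in R 4.3.3 (lmFit and eBayes), and 6 contrasts were tested two-sided, with Benjamini-Hochberg adjustment over the 12495 genes. Precision is limited by the number of arrays. The fit was checked on simulated data with independent arrays and few changed genes. These data differ in both respects, so the check does not cover arrays that deviate together or a change in many genes.

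The members and gene lists were chosen with earlier results of these data known. Genes named were the 10 with the largest fall and, at most, the 10 with the largest rise among those called for the PMA effect, any called for DOC, the 3 brightest and 3 dimmest, the MRPS18 family, those with probe sets called in opposite directions, and the 3 largest changes of each other list with counts of 5 or fewer spelled out. MRPL57, MRPL46, MRPL27, MRPL18, MRPL20, POLRMT, PRORP and the neighbouring genes were named after their values were seen.

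Replicate numbers are given in each group without a statement of what they share. Same-numbered arrays of PMA and of DOC plus PMA deviated together in all 4 pairs (correlations from 0.157 to 0.549), so these were taken as paired, from the data alone; in other pairs of groups at most 3 of 4 did. A block for the number in that comparison left 0 of 74 members called, as without it.

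Alternatives were the filter, the mean of a gene's probe sets, cyclic loess, a common median, array weights, a replicate block and leaving arrays out. Gene starts and promoter letters came from RefSeq tables on GRCh38.p14, with 1 start a gene.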

Additional observations from a re-analysis of the deposited data

Results flagged for a closer look

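In 76 groups of 4 arrays, over 19 named members, the array farthest from the rest was looked for, which chance alone would flag in about 5% of groups. Single arrays stood apart in 7. With PMA, replicate 2 was low for MRPS30 (9.27, the others 9.6 to 9.61) and for MRPL42 (8.31, the others 8.86 to 8.89). With DOC plus PMA, replicate 2 was low for MRPS26 (8.72, the others 8.91 to 8.94). With DOC, replicate 1 was low for MRPL12 (8.98, the others 9.46 to 9.49) and replicate 2 for MRPS18B (9.73, the others 9.82 to 9.83). High arrays were vehicle replicate 4 for MRPL50 (8.51, the others 8.31 to 8.34) and PMA replicate 4 for MRPS2 (9.4, the others 9.27 to 9.29). Of these 7, 4 lie on the 3 arrays that deviate together (replicate 2 of both groups with PMA, replicate 1 of DOC).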

How the results depend on the processing

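Counts of members called are set against 35 lower and 3 higher for PMA against vehicle (29.3% and 17.7% of all genes). For DOC plus PMA against DOC they are set against 18 and 5 (26.9% and 15.7% of all genes). For the PMA effect over both they are set against 37 and 6 (35.5% and 21.7% of all genes). Where no share over all genes is given below, a count does not set the members apart from a shift of all genes. With the common median, PMA against vehicle gave 21 lower and 6 higher, and the comparison with DOC gave 8 higher. The PMA effect then gave 23 lower and 11 higher, where 27.3% of all genes fell and 33.0% rose. The count of 3 higher without DOC became 5 with the filter at the 60th percentile, 5 after cyclic loess, 6 with array weights and 6 without the 3 deviating arrays. With a replicate block over all 16 arrays, 38 were lower and 5 higher for PMA against vehicle, and 22 and 6 with DOC. For the PMA effect 40 were lower and 8 higher, where 36.4% of all genes fell and 22.3% rose. Leaving out 1 array at a time gave 23 to 37 lower and 2 to 6 higher for PMA against vehicle. With DOC it gave 15 to 24 lower and 3 to 7 higher. For the PMA effect it gave 33 to 40 lower and 6 to 7 higher. Of all genes, 33.9% to 36.8% were then lower for the PMA effect and 20.3% to 22.3% higher. For the effect of DOC, with PMA or without it, and for the interaction, every alternative left 0 members called. Averaging the probe sets of a gene turned the sign of MRPL50 for PMA against vehicle (-0.03), of MRPL35 for the PMA effect (-0.16), without DOC (-0.14) and with DOC (-0.17), and of PTCD3 (-0.19) and DAP3 (-0.03). The cause of these shifts was not tested.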
